A study of Mus musculus with 24 samples.

Results

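Running was compared with a sedentary life in RNA that came off tagged ribosomes of the mouse dentate gyrus after 18 days, in 2 libraries against 2. These 4 libraries are among the 24 of the series, of which 12 hold RNA from the ribosome precipitate (IP) and 12 hold RNA of the tissue before precipitation (input). The genes described are those in which both running libraries lay above or below both sedentary ones. Of 17278 genes tested, 3720 were of the first kind and 4113 of the second, and the remaining 9445 overlapped. Per its title, the series asked how voluntary running alters translation in neurons born in the adult hippocampus.

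All mice of the comparison, running and sedentary alike, were female C57BL6 animals of the line Nes-CreERT2::RiboTag. They carried the Tg(Nestin-cre/ERT2) driver and 1 allele of Rpl22 that gains a haemagglutinin (HA) tag once Cre has acted (RPL22HA/WT). All received tamoxifen at 9 to 11 weeks of age, once a day for 5 days at 160 mg per kg. Running mice lived alone with a wheel that turned, and sedentary mice lived in the same kind of cage with a wheel fixed in place. In the mice as described, Cre is driven by Nestin. The tag can therefore mark cells in which this driver was active when tamoxifen was given and the descendants of such cells, whatever they have become. The share of such cells that gained the tag was not measured here. Neither the number of mice in a library nor a separate origin of the libraries c and d is given in the labels. All p-values therefore measure only how far these samples spread, and that spread may be technical.

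In the dentate gyrus, radial stem cells that carry Sox2, Nestin and glial fibrillary acidic protein give rise to dividing progenitors marked by Eomes and Neurod1. These become neuroblasts and immature neurons that carry doublecortin (Dcx) and, for a time, calretinin (Calb2), extend an axon toward CA3, and end as granule neurons that carry calbindin (Calb1). Wheel running is a classical stimulus of this neurogenesis in rodents, long known to raise the number of dividing progenitors and of young neurons.

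Values are TPM, a unit in which each library sums to the same total and each gene is scaled by its length. The depth of a library is therefore unknown. The median gene stood at 7.87 to 9.07 TPM in the 4 libraries, and Rpph1, the RNA of ribonuclease P, took 4.58% of the TPM in running c, 6.66% in running d, 5.47% in sedentary c and 9.16% in sedentary d. Across genes, the 2 running libraries correlated at 0.976 (Pearson, log2(TPM + 1)), the 2 sedentary libraries at 0.976, and pairs of a running with a sedentary library at 0.967 to 0.973. Rpl22, the tagged protein's own gene, stood at 152 and 165 TPM in the running libraries and at 135 and 158 TPM in the sedentary ones, which overlapped. The choroid plexus transcript Ttr stood at 106 TPM in running d and at 2.85, 1.13 and 0.940 TPM in running c, sedentary c and sedentary d, so that 1 running library stood apart in it. The input library of running d stood apart too, at 539 TPM against 15.3, 9.49 and 10.8 TPM in the inputs of running c, sedentary c and sedentary d.

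The IP is labelled as immature neurons, and markers of that stage were well represented. Dcx stood at 196 and 137 TPM in running c and d and at 108 and 77.2 TPM in sedentary c and d, and Prox1, the identity factor of granule neurons, at 660 and 552 TPM against 427 and 414 TPM. Neurod1, a factor of granule neuron differentiation, stood at 354 and 263 TPM against 230 and 206 TPM. In these 3 genes and in Calb2 both running libraries lay above both sedentary ones. Markers of other cells were present as well. Gfap, of astrocytes and radial stem cells, stood at 403 and 410.1 TPM in the running and 559 and 443 TPM in the sedentary libraries, and the myelin gene Mbp at 97.6 and 113 TPM against 147 and 124 TPM. Sox2 stood at 51.1 and 54.0 TPM against 75.1 and 58.2 TPM, Nes, which encodes Nestin, at 55.4 and 58.7 TPM against 60.2 and 50.2 TPM, and Calb1 at 83.4 and 75.2 TPM against 101 and 80.8 TPM. Gfap, Mbp and Sox2 were lower in both running libraries without overlap, and Nes and Calb1 overlapped. The precipitate thus held transcripts of stem cells, glia and mature neurons beside those of immature neurons. In such bulk RNA, a different number of cells of a type and a different amount of RNA per cell cannot be told apart.

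No single gene passed the test of running against sedentary at day 18. Over all 17278 genes, limma with Benjamini-Hochberg adjustment called 0 genes (0%) at an adjusted p under 0.05, and 1549 genes (8.97%) had an unadjusted p under 0.05, of which 805 were higher and 744 lower in the running libraries. The smallest adjusted p was 0.0628, of a gene model without a proper name. The count was 9 when the 4 libraries were fitted alone, 9 without sedentary c, 5 without running c, 6 without running d and 0 without sedentary d. An exact permutation test of 2 libraries against 2 cannot give a two-sided p below 0.333. The share of genes without overlap was 21.5% for running above sedentary and 23.8% for running below, and these shares are the background against which the groups below are given. The median difference over all genes was −0.01 on the log2(TPM + 1) scale, the scale of all differences below, which understates the change of low genes. Most separations were narrow. Among 13203 genes with a mean of at least 5 TPM in the higher group, the lower running value was at least 1.5 times the higher sedentary value in 86 genes, and the reverse held in 110. A gap of at least 2 times was seen in 19 and 21 genes.

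The genes that stood higher in both running libraries included those of young neurons, of dividing cells and of the growing axon. Among 37 gene lists, the 3 with the highest medians were immature neurons (0.72), intermediate progenitors and neuroblasts (0.59) and the microtubules and growth cone (0.48). All lists and members were chosen with earlier results of these data known, and some genes are on more than 1 list. The lists with the lowest medians were microglia (−0.52), nuclear noncoding RNAs (−0.40), meninges and fibroblasts (−0.36) and astrocytes (−0.32). A median above 0 was found in 18 of the 37 lists, and no member of any list passed the test over all genes, the smallest adjusted p among them being 0.324 (limma).

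**Figure D1:**
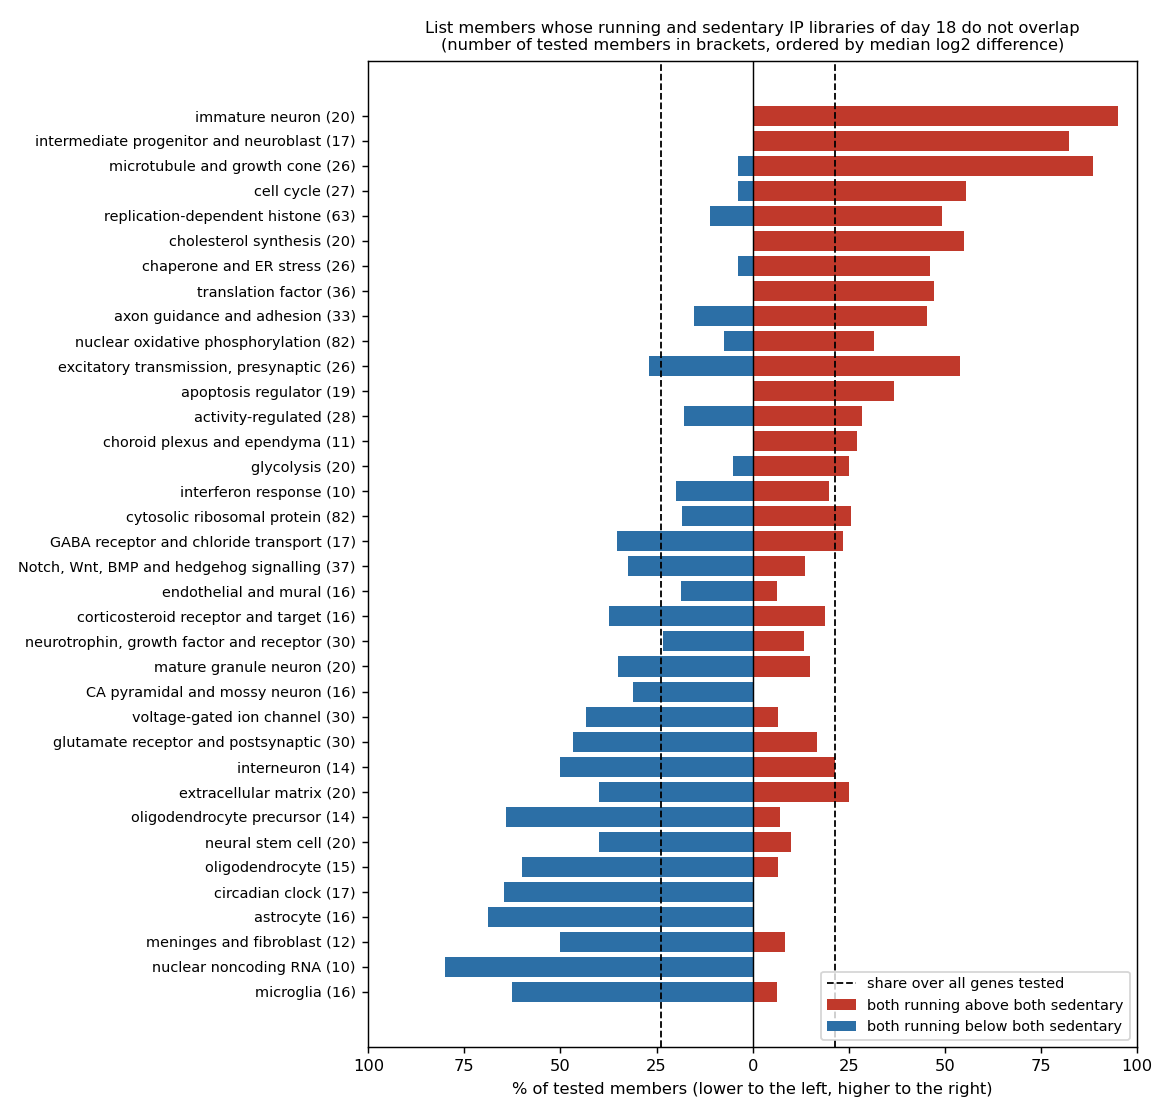
Share of the tested members of 36 gene lists (in percent, x axis) in which both running IP libraries of day 18 lay above (red, right) or below (blue, left) both sedentary ones, with the number of tested members in brackets. The dashed lines mark the shares over all 17278 genes, 21.5% above and 23.8% below; immature neuron, microtubule and progenitor members extend far past the right line, and nuclear noncoding RNAs and astrocytes past the left.

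Genes of the cell cycle, which drive DNA replication and mitosis, stood higher in part. Of 27 tested, 15 lay higher without overlap (55.6%) and 1, the survivin gene Birc5, lower, with a median of 0.32. The sum of their TPM overlapped, at 1410.5 and 1503 in running c and d against 1469.8 and 1324.4 in sedentary c and d. Ccnb1, the cyclin that starts mitosis, stood at 14.9 and 13.2 TPM in running c and d against 6.89 and 7.60 TPM in sedentary c and d, a difference of 0.87 ± 0.28 (SE). Top2a, the topoisomerase that untangles replicated chromosomes, stood at 70.6 and 55.9 TPM against 44.7 and 33.9 TPM (0.68 ± 0.19). Cenpf, a kinetochore protein, stood at 36.8 and 26.8 TPM against 19.9 and 18.6 TPM (0.68 ± 0.20). All 3 separated the groups, with adjusted p values (limma) between 0.425 and 0.456. Rrm2, the subunit of ribonucleotide reductase made in S phase, stood at 24.4 and 23.8 TPM against 16.7 and 11.5 TPM (0.75 ± 0.22). Cdca3, which triggers entry into mitosis and was not on the list, stood at 21.3 and 15.1 TPM against 9.25 and 4.61 TPM, 2.63-fold higher on the means (1.32 ± 0.28, adjusted p = 0.324). The other 11 members of the list overlapped, the proliferation genes Mki67 and Pcna among them. Mki67 stood at 19.5 and 15.9 TPM against 16.5 and 11.8 TPM, and Pcna at 93.2 and 73.1 TPM against 99.4 and 60.1 TPM.

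Promoters of cell cycle genes often carry a short element, the cell cycle homology region (TTTGAA on either strand), known as a binding place of complexes that hold such genes silent outside the late cell cycle. The stretches of 2 of the members, Cdk1 and Top2a, are shown because both genes separated the groups and both carry the element shortly before the start site. They are the 120 bases before the annotated start, written 5′ to 3′ on the strand of the gene, from RefSeq on GRCm38.p6, at chr10:69352913-69353032 (minus strand) and chr11:99024190-99024309 (minus strand). Capitals mark the element, or its reverse complement where it lies on the other strand.
Cdk1: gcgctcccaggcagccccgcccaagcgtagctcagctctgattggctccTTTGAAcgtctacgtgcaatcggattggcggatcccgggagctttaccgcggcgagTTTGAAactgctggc
Top2a: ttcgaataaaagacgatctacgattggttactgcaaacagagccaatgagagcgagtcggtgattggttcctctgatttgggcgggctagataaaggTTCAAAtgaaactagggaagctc
In Cdk1 the copy nearest to the start begins 15 bases before it, and in Top2a 23 bases before it. Cdk1, the kinase of mitotic entry, stood at 5.67 and 6.87 TPM in the running and 4.29 and 3.96 TPM in the sedentary libraries. Among the list's 24 members with a RefSeq promoter of the same window (250 bases before to 50 after the start), 12 held the 6 letters on either strand (50%), and among its members higher without overlap 9 of 14 did (64.3%). Of all 12482 tested genes with a promoter entry 14.7% held them. Another short element, the E-box CAGATG, was sought in the same windows of 3 other lists. It was held by 16.7% of progenitor and neuroblast promoters, 11.1% of immature neuron and 15.8% of microtubule and growth cone promoters. Among the tested genes the share was 15.2%. A match of such letters is a description of the window and no measure of binding.

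Replication-dependent histones, whose messages accumulate in S phase, gave 31 of 63 tested members higher without overlap (49.2%), 7 lower, and a median of 0.30. Copies of these genes are nearly identical, so the share of reads given to any single one is uncertain. Hist1h2bm, an H2B gene, had the clearest values, 73.3 and 65.5 TPM in the running libraries against 23.7 and 21.9 TPM in the sedentary ones, 3.04-fold higher on the means (1.56 ± 0.32, adjusted p = 0.324). The groups lay far apart relative to the spread within each. With the 4 libraries fitted alone its adjusted p was 0.0028 (limma), though the gene was chosen by its values in these libraries. In that same fit Hist1h2ah, an H2A gene, passed in the opposite direction (adjusted p = 0.00934), listed at 0 in both running libraries and at 11.4 and 7.63 TPM in the sedentary ones. Hist1h2bn stood at 173 and 142 TPM against 76.9 and 85.2 TPM (0.94 ± 0.25) and Hist1h2af at 186 and 144 TPM against 86.2 and 115 TPM (0.71 ± 0.20). In the opposite direction, Hist2h2be, an H2B gene known to be expressed in nondividing cells as well, stood at 11.8 and 9.88 TPM against 19.6 and 19.5 TPM (−0.80 ± 0.25).

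Intermediate progenitors and neuroblasts are the stage between stem cell and neuron. Of 17 tested genes of this stage, 14 were higher without overlap (82.4%) and 0 lower, with a median of 0.59. Calb2, the gene of the calcium buffer calretinin at chr8:110137502-110168210 (mm10, minus strand), was one of the 19 genes with a gap of at least 2 times. It stood at 549 TPM in running c and 324 TPM in running d, against 138 TPM in sedentary c and 116 TPM in sedentary d. Both running values were more than any sedentary value, and the means differed 3.43-fold (1.73 ± 0.35, adjusted p = 0.324, limma). With the 4 libraries fitted alone the adjusted p was 0.0439, though the gene was chosen by its values in these libraries. It was 0.253 with median-of-ratios scaling, 0.309 with a pseudocount of 0.1 and 0.358 with a pseudocount of 5. Bhlhe22, a basic helix-loop-helix factor of differentiating neurons, stood at 364 and 269.5 TPM against 173 and 159 TPM (0.92 ± 0.22, adjusted p = 0.369). Neurod4, a proneural factor of the same class, was low in all libraries, at 7.48 and 4.94 TPM against 2.17 and 1.69 TPM (1.28 ± 0.36). Mfap4, an extracellular microfibril protein, stood at 35.7 and 23.8 TPM against 18.5 and 11.7 TPM (0.94 ± 0.31). The factors that order the lineage lay higher too, by smaller amounts. Eomes, of intermediate progenitors, stood at 48.2 and 39.8 TPM against 34.2 and 28.6 TPM. The differences of Sox4 (0.62), Insm1 (0.59), Sox11 (0.52), Prox1 (0.52 ± 0.18) and Neurod1 (0.48 ± 0.22) were of similar size. Tac2, which encodes the neuropeptide neurokinin B and was picked out after its values were seen, stood at 107 and 33.7 TPM against 6.20 and 9.45 TPM, and its 2 running libraries differed from each other more than those of any other member of the list. The members whose libraries overlapped were Draxin, Elavl4 and Gadd45g, for example Elavl4, an RNA-binding protein of neurons, at 17.7 and 18.2 TPM against 19.2 and 14.4 TPM.

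Immature neurons gave the most uniform picture. Of 20 tested marker genes, 19 were higher in both running libraries (95.0%) and none lower, with a median of 0.72. The sum of their TPM was 8574 in running c, 6252 in running d, 4932 in sedentary c and 4149 in sedentary d. Dpysl3, a collapsin response mediator protein that binds tubulin in growing axons, stood at 529 and 359 TPM against 225 and 207 TPM, 2.06-fold on the means (1.01 ± 0.23, adjusted p = 0.324). Its relatives stood apart likewise. Crmp1 stood at 482 and 348 TPM against 258 and 211 TPM (0.81 ± 0.22), and Dpysl5 at 215 and 152 TPM against 125 and 96.4 TPM (0.71 ± 0.21). Dcx, the microtubule-binding protein that defines the stage, differed by 0.84 ± 0.31 (adjusted p = 0.515). Camk4, a calcium-dependent kinase, stood at 70.7 and 56.5 TPM against 43.4 and 32.6 TPM (0.73 ± 0.20). Tubb3, the neuronal tubulin, stood at 517 and 344 TPM against 290 and 209 TPM, and Stmn1, which destabilises microtubules, at 1805 and 1286 TPM against 945 and 861 TPM. In each of these genes running c was the highest library, running d the second, and both sedentary libraries lay below. The member that did not separate was Dscaml1, an adhesion molecule, at 88.2 and 77.1 TPM against 87.6 and 78.5 TPM.

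Microtubule and growth cone genes build the cytoskeleton of the extending neurite. Of 26 tested, 23 were higher without overlap (88.5%) and 1, the scaffold gene Ank2, was lower at 1076 and 1406 TPM against 1544 and 1631 TPM. The median was 0.48. Map1b, a microtubule-associated protein of growing axons, stood at 1682 and 1273 TPM against 882 and 855 TPM (0.75 ± 0.20, adjusted p = 0.394). Kif21b, a kinesin motor, stood at 169 and 111 TPM against 78.7 and 72.4 TPM (0.85 ± 0.22). Tubb2a, a beta tubulin, stood at 998 and 698 TPM against 481 and 414 TPM (0.90 ± 0.25). Basp1, a membrane protein of the growth cone, stood at 625 and 551 TPM against 348 and 383 TPM (0.68 ± 0.21). The abundant alpha tubulin Tuba1a stood at 4469 and 3092 TPM against 2485 and 1831 TPM. Map1b, Kif21b, Tubb2a and Basp1, named for their low p, differed by 0.68 to 0.90, more than the median of the list. Gap43, which also counts among the immature neuron genes, was at 60.8 and 45.8 TPM against 43.1 and 35.2 TPM. Inf2, a formin that builds and severs actin filaments, was not on a list and had the lowest p of the named genes. It stood at 130.2 and 94.3 TPM against 60.7 and 53.1 TPM, 1.97-fold on the means (0.95 ± 0.18, adjusted p = 0.306), at chr12:112588784-112615557 (mm10, plus strand).

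**Figure D2:**
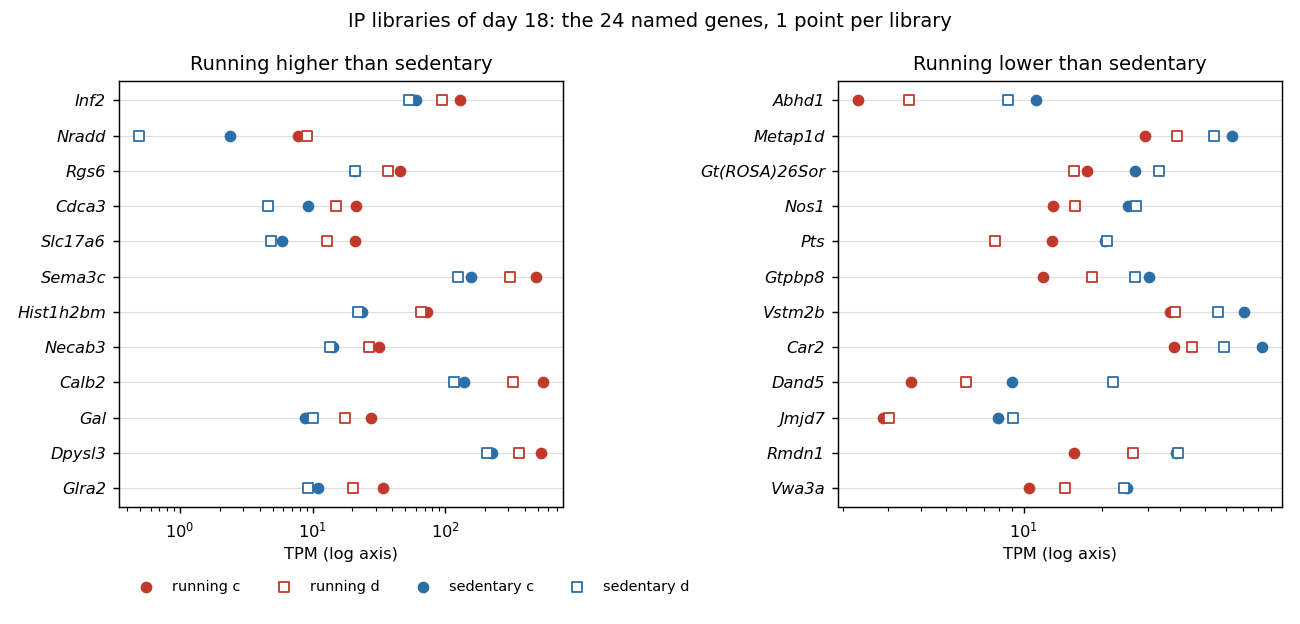
TPM (x axis, log scale) of the 24 named genes in the 4 IP libraries of day 18, 12 genes higher in the running libraries on the left and 12 lower on the right, with 1 point per library (circles for c, squares for d, red for running, blue for sedentary). In every row both red points lie on one side of both blue points, as the rule for these genes requires, and in Calb2, Sema3c and Dpysl3 running c lies farthest from the sedentary libraries.

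Ligands and receptors of axon guidance were split. Of 33 tested, 15 were higher without overlap (45.5%) and 5 lower, with a median of 0.20. Among secreted ligands, Sema3c stood at 481 and 307 TPM against 157 and 126 TPM, 2.79-fold on the means (1.44 ± 0.29, adjusted p = 0.324), at chr5:17574281-17730268 (mm10, plus strand). The other secreted ligands differed less. Sema3a stood at 6.09 and 5.33 TPM against 9.23 and 6.93 TPM, and Slit1, a repellent for Robo receptors, at 95.5 and 127 TPM against 137 and 150 TPM, both lower without overlap. On the receptor side, Robo1 stood at 105 and 80.5 TPM against 61.6 and 54.4 TPM (0.66 ± 0.17), the adhesion molecule L1cam at 83.9 and 63.4 TPM against 50.4 and 39.9 TPM (0.69 ± 0.21), and Epha4 at 456 and 352 TPM against 305 and 252 TPM (0.53 ± 0.19). The semaphorin receptors Plxna2 (0.46), Plxna4 (0.43) and Nrp1 (0.33) also lay higher without overlap. The receptor genes that lay lower were Epha5, at 104 and 103 TPM against 120.1 and 105 TPM, and Plxnd1, at 6.01 and 5.06 TPM against 6.42 and 6.93 TPM.

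Several other named genes belong to signalling. Slc17a6, the vesicular glutamate transporter VGLUT2, stood at 20.7 and 12.8 TPM against 5.88 and 4.84 TPM, 3.12-fold on the means (1.45 ± 0.31). Glra2, the glycine receptor subunit of immature neurons, stood at 33.9 and 20.2 TPM against 11.0 and 9.31 TPM (1.29 ± 0.30). Gal, which encodes the neuropeptide galanin, stood at 27.5 and 17.5 TPM against 8.72 and 10.03 TPM (1.15 ± 0.26). In all 3 running c was the higher of the running libraries. Subtracted in TPM, the gap between the groups was smaller than the difference between the running libraries. On the log2(TPM + 1) scale it was larger. Nradd, a death domain protein related to the p75 neurotrophin receptor, was low throughout, at 7.71 and 9.01 TPM against 2.38 and 0.490 TPM (2.06 ± 0.42). Rgs6, a regulator of G-protein signalling, stood at 45.9 and 36.8 TPM against 20.8 and 20.9 TPM (0.95 ± 0.19), and Necab3, a neuronal calcium-binding protein, at 31.7 and 26.4 TPM against 14.2 and 13.5 TPM (1.01 ± 0.22). The adjusted p of these 6 genes was 0.324 (limma). Rgs6, Slc17a6 and Necab3 overlap other annotated genes, and the use of strand in counting is not given in the sources used here. Their values are therefore less certain.

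Genes of neurotransmission lay in both directions, and the lists were not tested against each other. Presynaptic and excitatory transmission genes had 14 of 26 members higher (53.8%) and 7 lower without overlap, with a median of 0.14. Syn1, a protein of synaptic vesicles, stood at 363 and 296 TPM against 228 and 219.8 TPM (0.55 ± 0.17), and Syp, another vesicle protein, at 624 and 523.5 TPM against 359 and 402 TPM (0.59 ± 0.21). Glutamate receptors and postsynaptic proteins lay the other way, with 5 of 30 higher, 14 lower (46.7%) and a median of −0.13. Shank2, a postsynaptic scaffold, stood at 135 and 172 TPM against 209 and 211 TPM (−0.46 ± 0.21), while the metabotropic receptor Grm2 stood at 98.0 and 87.3 TPM against 62.5 and 68.6 TPM (0.49 ± 0.15). Voltage-gated ion channels had 2 of 30 members higher and 13 lower (43.3%), with a median of −0.10. Cacna1g, a T-type calcium channel, was one of the 2 higher, at 39.2 and 28.8 TPM against 19.3 and 19.1 TPM (0.78 ± 0.21), and the sodium channel Scn1a was lower at 42.5 and 50.6 TPM against 64.5 and 63.4 TPM (−0.45 ± 0.19). GABA receptors and chloride transporters were mixed, with 4 of 17 higher, 6 lower and a median of −0.02. Gabra5, which contributes to extrasynaptic receptors, stood at 118 and 90.3 TPM against 74.1 and 64.7 TPM (0.57 ± 0.16), and Gabra2, a subunit of synaptic receptors, at 165 and 199.8 TPM against 342 and 271 TPM (−0.74 ± 0.22). Mature granule neuron genes had 3 of 20 higher and 7 lower (35.0%), with a median of −0.09, and Calb1 differed by −0.19 ± 0.16. The sum of the mature granule list was 1572 and 1627 TPM in the running and 1592 and 1583 TPM in the sedentary libraries, which overlapped.

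Genes that respond to neuronal activity showed no common direction. Of 28 tested, 8 were higher (28.6%) and 5 lower without overlap, with a median of 0.11. Bdnf, the neurotrophin best known to respond to running, stood at 39.6 and 33.2 TPM against 19.7 and 26.4 TPM (0.65 ± 0.18, adjusted p = 0.425). The opioid peptide precursor Penk stood at 24.9 and 18.1 TPM against 13.99 and 13.8 TPM (0.58 ± 0.24). Both separated the groups upward, while Jun, a subunit of the transcription factor AP-1, separated downward at 113 and 115 TPM against 148 and 153 TPM (−0.40 ± 0.14). Fos and Arc, classical immediate early genes, overlapped. Neurotrophins, growth factors and their receptors had 4 of 30 higher and 7 lower, with a median of −0.08, and Erbb4, a neuregulin receptor, was among the lower at 12.7 and 20.2 TPM against 25.1 and 23.7 TPM (−0.58 ± 0.25). Genes of Notch, Wnt, BMP and hedgehog signalling had 5 of 37 higher and 12 lower (32.4%), with a median of −0.07.

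Among metabolic and protein-making genes, those of cholesterol synthesis, chaperones, translation factors and oxidative phosphorylation lay higher, by smaller amounts. The cholesterol synthesis pathway had 11 of 20 members higher (55.0%) and 0 lower, with a median of 0.28. Fdps, which makes farnesyl diphosphate, stood at 149 and 121 TPM against 79.9 and 74.2 TPM (0.79 ± 0.23), and Sqle, a rate-controlling enzyme of the late pathway, at 71.2 and 56.3 TPM against 39.6 and 38.4 TPM (0.69 ± 0.21). Chaperones and endoplasmic reticulum stress genes had 12 of 26 higher (46.2%) and 1 lower, with a median of 0.28. The cytosolic chaperone Hsp90ab1 stood at 3977 and 2940 TPM against 2069 and 2102 TPM (0.71 ± 0.25). Translation factors had 17 of 36 higher (47.2%) and 0 lower with a median of 0.22, for example the helicase gene Eif4a1 at 493 and 373 TPM against 311 and 289.8 TPM (0.51 ± 0.21). Nuclear genes of oxidative phosphorylation had 26 of 82 higher (31.7%) and 6 lower with a median of 0.15, among them Ndufa4 at 209 and 149.96 TPM against 121 and 109.96 TPM (0.61 ± 0.19). Glycolysis had 5 of 20 higher (25%), close to the background share of 21.5%, and 1 lower (5%), below that of 23.8%, with a median of 0.10. Cytosolic ribosomal proteins (21 of 82 higher, 15 lower, median 0.03) lay close to the background shares. Apoptosis regulators had 7 of 19 higher (36.8%), 0 lower and a median of 0.13, with Trp53, the p53 gene, at 68.2 and 58.4 TPM against 47.0 and 46.0 TPM (0.43 ± 0.17). Without sedentary d the medians of glycolysis, ribosomal proteins and apoptosis regulators were −0.08, −0.03 and −0.02.

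Of 20 neural stem cell genes, 8 were lower (40.0%) and 2 higher without overlap, with a median of −0.23. Hopx, a marker of quiescent stem cells, stood at 136 and 125 TPM against 206 and 156 TPM (−0.46 ± 0.17), and Hes5, a target of Notch that holds cells in the stem state, at 16.4 and 21.4 TPM against 26.4 and 26.6 TPM (−0.48 ± 0.20). Nes, which defines the line's driver, differed by 0.05 ± 0.19. The stem cell list's median was −0.01 when sedentary c was left out, so its size depended on that library.

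Of 16 astrocyte genes, 11 were lower (68.8%) and 0 higher, with a median of −0.32. Gja1, the gap junction protein of astrocytes, stood at 104 and 96.8 TPM against 158 and 116 TPM (−0.43 ± 0.19), and Glul, glutamine synthetase, at 360.3 and 398 TPM against 559 and 495 TPM (−0.47 ± 0.21). Sedentary c was the highest library in both, as in the summed level of the list, which was 5619 and 5507 TPM in the running and 7785 and 6183 TPM in the sedentary libraries. Without sedentary c the list's median was −0.21. Oligodendrocyte genes had 9 of 15 lower (60.0%), 1 higher and a median of −0.26, and oligodendrocyte precursor genes 9 of 14 lower (64.3%), 1 higher and a median of −0.21. Aspa, an enzyme of oligodendrocytes, stood at 1.93 and 2.37 TPM against 6.56 and 4.46 TPM (−1.03 ± 0.35), and Pdgfra, the growth factor receptor of the precursors, at 7.45 and 8.63 TPM against 12.6 and 12.8 TPM (−0.60 ± 0.25). Microglia genes had the lowest median, −0.52, with 10 of 16 lower (62.5%) and 1 higher. All of them were low in level, with a summed TPM of 202 and 172 against 261 and 240. Cx3cr1, the fractalkine receptor of microglia, stood at 10.05 and 9.48 TPM against 16.0 and 15.1 TPM (−0.62 ± 0.24), and Csf1r, their survival receptor, at 14.4 and 15.2 TPM against 22.2 and 22.2 TPM (−0.56 ± 0.23). The glial lists lay lower while those of young neurons lay higher in the same libraries, and in a unit that sums to a fixed total a larger share for some genes lowers that of others; the part of either in the other was not tested.

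Other cells of the region were covered by further lists. Endothelial and mural genes had 1 of 16 higher, 3 lower and a median of −0.07. Meninges and fibroblast genes had 1 of 12 higher, 6 lower (50%) and a median of −0.36. Choroid plexus and ependymal genes had 3 of 11 higher, 0 lower and a median of 0.11, and the sum over all 12 genes of the list, 1 of them untested, was 34.2 TPM in running c, 146 TPM in running d, and 32.2 and 29.8 TPM in the sedentary libraries, where Ttr made up most of the excess of running d. CA pyramidal and mossy neuron genes had 0 of 16 higher, 5 lower (31.2%) and a median of −0.10. Interneuron genes had 3 of 14 higher, 7 lower (50%) and a median of −0.15. Dlx1, a factor of the interneuron lineage, stood at 5.03 and 5.97 TPM against 11.0 and 14.6 TPM (−1.08 ± 0.27), while the neuropeptide Npy stood at 26.3 and 31.7 TPM against 13.9 and 16.3 TPM (0.90 ± 0.31). In the input of day 18 Npy lay the other way, at 53.8 and 79.1 TPM against 82.6 and 149 TPM (−0.76 ± 0.27, adjusted p = 0.788, limma). Olfactory receptors, which serve as a measure of background since the hippocampus hardly uses them, had 35 of 195 higher (17.9%), 32 lower (16.4%) and a median of 0.00.

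Clock genes lay lower. Of 17 tested, 11 were lower without overlap (64.7%) and 0 higher, with a median of −0.27. Per3, a period gene, stood at 33.4 and 43.7 TPM against 63.5 and 63.6 TPM (−0.72 ± 0.21), and Hlf, an output factor of the clock, at 27.8 and 29.8 TPM against 46.1 and 45.2 TPM (−0.65 ± 0.19). Both separated clearly, with adjusted p values of 0.425 and 0.431. Their partners Arntl and Clock of the core loop overlapped. The time of day at which tissue was taken is not given in the sources used here. Corticosteroid receptors and targets had 3 of 16 higher, 6 lower (37.5%) and a median of −0.08, with the glucocorticoid receptor gene Nr3c1 at 31.3 and 35.8 TPM against 54.7 and 42.9 TPM (−0.52 ± 0.21). Interferon response genes had 2 of 10 higher and 2 lower, with a median of 0.04. Extracellular matrix genes had 5 of 20 higher and 8 lower (40.0%) with a median of −0.20, and Bcan, a proteoglycan of the perineuronal matrix, stood at 84.9 and 87.6 TPM against 144 and 123 TPM (−0.62 ± 0.16, adjusted p = 0.376).

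RNAs that stay in the nucleus are a gauge of RNA that was not on ribosomes. Of 10 such noncoding RNAs, 8 were lower in both running libraries (80.0%) and 0 higher, with a median of −0.40. Xist, which coats the inactive X chromosome, stood at 268 and 390.2 TPM against 515 and 513 TPM (−0.67 ± 0.25), and Rian, an imprinted transcript, at 111 and 142 TPM against 176 and 157 TPM (−0.40 ± 0.17). The members are not all separate. Tsix, also among the lower, spans Xist on the opposite strand, and the use of strand is not given in the sources used here. Rian and Mirg, both lower, lie close together on chr12. Malat1 stood at 31350 and 36468 TPM against 36222 and 41603 TPM, which overlapped. The part of such carried-over RNA in the lists above was not tested.

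The 12 named genes that stood lower came from no single group. Nos1, the neuronal nitric oxide synthase, stood at 12.9 and 15.7 TPM against 25.3 and 27.0 TPM, 1.82-fold lower (−0.83 ± 0.19). Car2, a carbonic anhydrase abundant in oligodendrocytes, stood at 38.1 and 44.4 TPM against 83.0 and 59.2 TPM (−0.76 ± 0.18). Pts, an enzyme of tetrahydrobiopterin synthesis, stood at 12.8 and 7.73 TPM against 20.6 and 21.0 TPM (−0.99 ± 0.23). In each of the 3, both running libraries lay below both sedentary ones with a gap. Vstm2b, an immunoglobulin domain membrane protein, stood at 36.5 and 38.4 TPM against 70.4 and 56.2 TPM (−0.73 ± 0.17). Dand5, a secreted antagonist of Nodal and BMP, stood at 3.66 and 5.99 TPM against 9.03 and 22.0 TPM (−1.41 ± 0.34). Metap1d, a mitochondrial methionine aminopeptidase, stood at 29.2 and 39.1 TPM against 63.3 and 54.2 TPM (−0.77 ± 0.17). The noncoding transcript Gt(ROSA)26Sor of the Rosa26 locus stood at 17.5 and 15.6 TPM against 26.9 and 33.1 TPM (−0.82 ± 0.19). The remaining 5 were Abhd1, Gtpbp8, Jmjd7, Rmdn1 and Vwa3a, whose differences lay between −1.48 ± 0.30 for Abhd1 and −0.91 ± 0.21 for Gtpbp8. Adjusted p values of the 12 were 0.324 to 0.369 (limma). Of the 12, all but Pts, Car2 and Dand5 overlap another annotated gene, among them Preb for Abhd1, Dlx1as for Metap1d and Thumpd3 for Gt(ROSA)26Sor, so that reads of the partner could enter their values.

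The 2 running libraries did not differ from the sedentary ones to the same extent. Against the mean of both sedentary libraries, the median of the immature neuron genes was 0.92 in running c and 0.45 in running d. It was 0.76 and 0.39 for progenitors and neuroblasts, 0.63 and 0.31 for microtubules and the growth cone, and 0.35 and 0.09 for translation factors. The cell cycle list was closer to even, at 0.37 and 0.31, as were the astrocyte list at −0.33 and −0.31 and the clock list at −0.28 and −0.23. Microglia genes lay further down in running d, at −0.52 against −0.28 in running c. The median over all genes was 0.00 in running c and −0.01 in running d. Leaving out sedentary c or sedentary d gave 0.85 and 0.54 for immature neurons, 0.67 and 0.54 for progenitors and 0.59 and 0.34 for microtubules and the growth cone. Since nearly all members of these 3 lists separate the groups, the sign of their medians could not turn. The same omissions gave 0.47 and 0.23 for the cell cycle, 0.38 and 0.14 for cholesterol synthesis, −0.15 and −0.32 for oligodendrocytes and −0.23 and −0.36 for the clock. Nuclear noncoding RNAs lay at −0.55 in running c and −0.22 in running d. Without running c the median was 0.00 for interneurons, 0.01 for activity-regulated genes, −0.06 for ion channels, 0.18 for chaperones and 0.36 for the choroid plexus. Without sedentary c it was −0.07 for postsynaptic genes, −0.12 for the extracellular matrix and −0.19 for meninges. Without sedentary d it was 0.10 for axon guidance, 0.07 for oxidative phosphorylation and −0.26 for CA and mossy neurons.

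**Figure D3:**
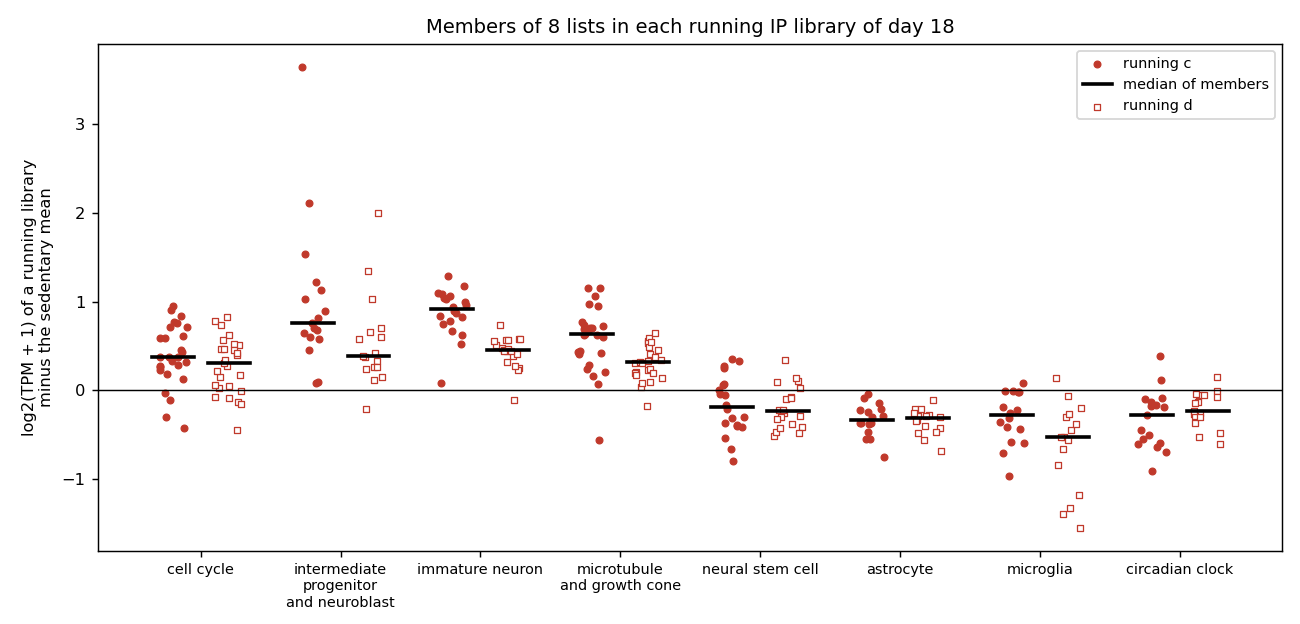
Each point is 1 member of 1 of 8 gene lists, and the y axis gives its log2(TPM + 1) in running c (filled circles) or running d (open squares) minus the mean of both sedentary libraries; bars are medians over members. The medians of the immature neuron list are 0.92 and 0.45 and those of the astrocyte list −0.33 and −0.31.

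Whether the difference at day 18 stood apart from that of the other days was tested in the same fit, as the difference at day 18 minus the mean of those at day 11 and day 27. No gene passed (0 of 17278, 0%, limma), 574 genes (3.32%) had an unadjusted p under 0.05, and 441 of these were more positive at day 18. The median of this contrast over all genes was 0.08, since the all-gene medians were −0.11 at day 11 and −0.08 at day 27. The groups below are described against that shift. For immature neurons the list medians were 0.00 at day 11, 0.72 at day 18 and 0.35 at day 27, with 10, 19 and 19 of 20 members above 0. Progenitors and neuroblasts gave −0.06, 0.59 and 0.28, and the cell cycle genes 0.03, 0.32 and −0.09. Translation factors gave −0.06, 0.22 and 0.15. Of the 27 cell cycle genes, 7 had an unadjusted p under 0.05 for day 18 against the other days, and of the 20 immature neuron genes 2 had.

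Single genes show how the days differed. Cdca3 differed by 0.26 at day 11, 1.32 at day 18 and −0.37 at day 27, a contrast of 1.38 ± 0.34. Nradd gave −0.16, 2.06 and 0.22 (2.03 ± 0.52), and Hist1h2bm −0.54, 1.56 and 0.74 (1.47 ± 0.39). The adjusted p of these contrasts was 0.999, so none was established. For Calb2 the difference was positive on all 3 days, at 0.79, 1.73 and 0.53 (contrast 1.07 ± 0.43). The sedentary levels moved across days as well. Calb2 stood at 368 and 193 TPM in the sedentary libraries of day 11, at 138 and 116 TPM at day 18 and at 130 and 119 TPM at day 27, and in the running libraries at 457 and 463, 549 and 324, and 247 and 131 TPM. In this gene running at day 18 reached the range of day 11, whereas the sedentary libraries were already near their level of day 27. Dcx in the sedentary libraries stood at 149 and 114 TPM at day 11, 108 and 77.2 TPM at day 18 and 77.0 and 81.4 TPM at day 27, against 90.5 and 192, 196 and 137, and 112 and 94.1 TPM in the running ones. Astrocyte genes were different in kind, with medians of −0.41, −0.32 and −0.41 and no member above 0 on any of the 3 days, and clock genes gave −0.32, −0.27 and −0.13. The microglia list was at 0.07 at day 11 and −0.26 at day 27.

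**Figure D4:**
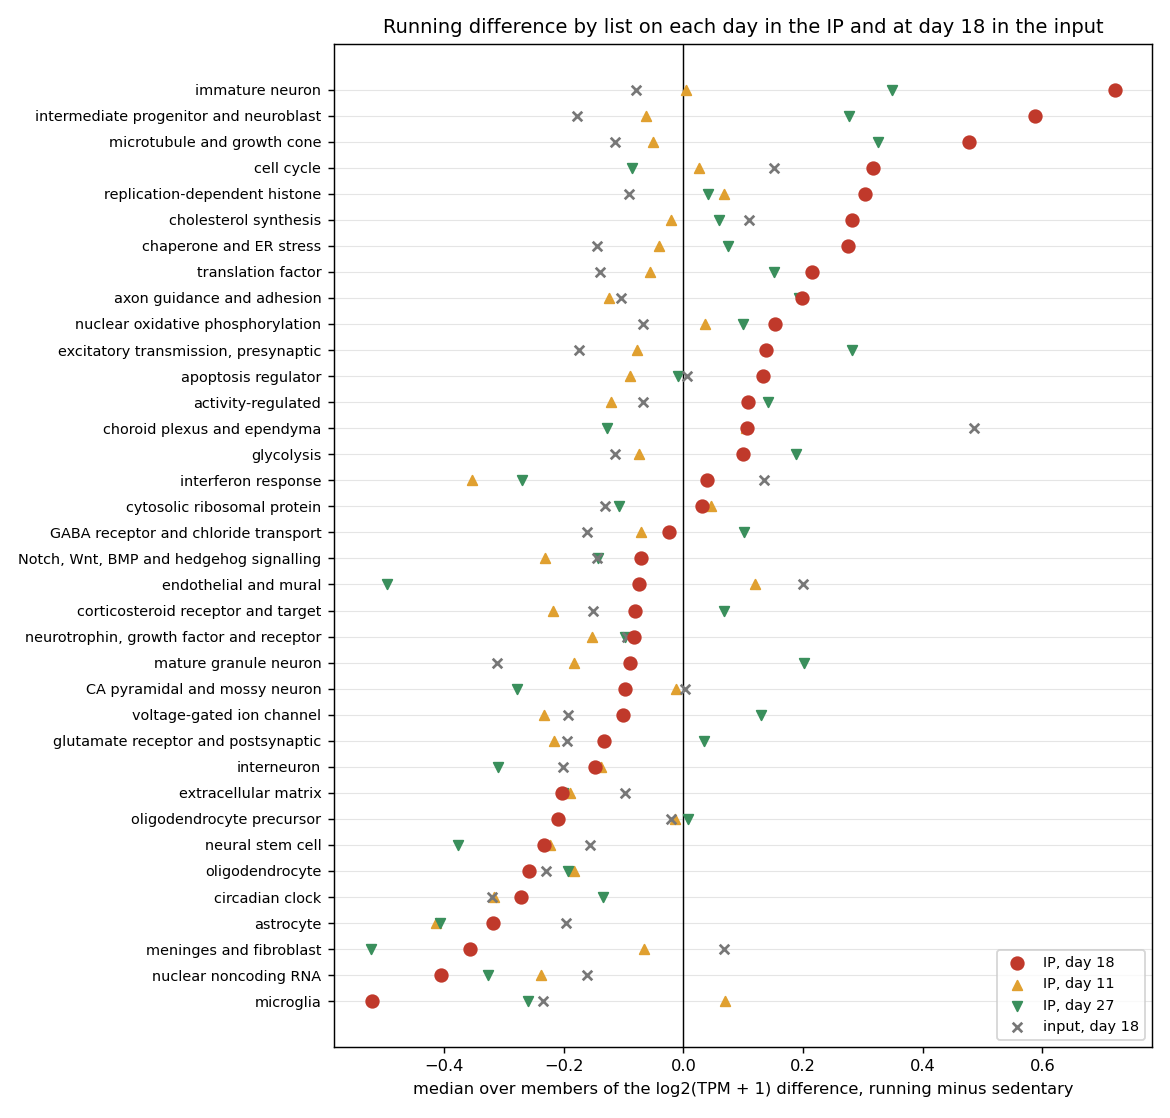
Median over the members of 36 gene lists of the difference in log2(TPM + 1), running minus sedentary (x axis), in the IP at day 18 (red circles), day 11 (yellow triangles) and day 27 (green triangles) and in the input at day 18 (grey crosses). The immature neuron list lies at 0.72 in the IP of day 18, 0.35 at day 27, 0.00 at day 11 and −0.08 in the input.

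The input libraries of the same day, which hold RNA of the dentate gyrus without precipitation, served as the comparison for the tissue. The genes that passed there were small RNAs (2 of 20459 genes, 0.00978%, limma), and 1210 genes had an unadjusted p under 0.05. Scarna8 stood at 9.65 and 9.44 TPM in the running libraries and was listed at 0 in both sedentary ones (adjusted p = 0.00756), and Mir701 was listed at 0 in both running libraries and stood at 6.34 and 9.33 TPM in the sedentary ones (adjusted p = 0.0154). The difference in the IP minus that in the input was then tested in a fit of all 24 libraries. It gave 0 of 19504 genes (0%, limma), with the smallest adjusted p at 0.257 and 1294 genes (6.63%) at an unadjusted p under 0.05.

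Over all genes tested in the IP, the median difference in the input was −0.07. The medians of the young neuron lists were above 0 in the IP and in the input lay near that value or below it, with no gene past the test of that difference. Immature neuron genes had a median of −0.08 in the input with 6 of 20 members above 0. For IP minus input, 13 of the 20 had an unadjusted p under 0.05 (limma), against 6.63% of all 19504 genes tested. That count holds the same IP values in which 19 of the 20 already lay higher, so it is no separate result. Progenitors and neuroblasts had −0.18 in the input with 7 of 17 above 0, and microtubules and the growth cone −0.11 with 6 of 26 above 0. Dcx was low in the input and level between groups, at 15.6 and 17.2 TPM in running and 15.4 and 16.3 TPM in sedentary libraries. Calb2 in the input stood at 112 and 134 TPM against 131 and 161 TPM, and its IP difference exceeded the input difference by 1.97 ± 0.41 (adjusted p = 0.291). Dpysl3 exceeded it by 1.17 ± 0.30 and Glra2 by 1.88 ± 0.45 (adjusted p of 0.495 and 0.386). The input behaved otherwise for the clock and for astrocytes, whose medians of −0.32 and −0.20 were on the same side as in the IP. For the cell cycle the input median was 0.15, with 17 of 27 members above 0.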

How the data were processed

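RNA was measured in 24 libraries, per the labels in 12 groups of 2 (fraction, activity, day). The authors deposited 1 table of TPM with 23306 rows. RSEM and the build mm10 are named in the submitters' processing notes. The annotation, version and use of strand were not given in the sources used here. TPM keeps no depth, so no counting interval was computed. Left out were 4 rows with 2 duplicated names, and 27 names turned into dates were not named.

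Genes with a mean of at least 1 TPM over the 12 IP libraries were tested by limma 3.58.1 (R 4.3.3, eBayes with trend and robust, two-sided, 6 residual degrees of freedom) on log2(TPM + 1), with 1 mean per group and p-values adjusted by Benjamini-Hochberg over all genes tested. Values after ± are standard errors. The input and the fit of all 24 libraries were treated alike. The fit was tested on simulated data. The 37 gene lists and all members were chosen with earlier results of these data known. Named genes were, in each direction, those past the threshold, filled up to 12 with the lowest unadjusted p among genes without overlap and with a mean of at least 5 TPM in the higher group, plus up to 4 members of each list and fixed markers. Further list members given as values, and Tac2, were chosen after their values were seen. Models with no proper name were counted but not named. Coordinates come from GENCODE on GRCm38 and promoters from RefSeq. Alternatives were other pseudocounts, filters, scalings and fits, a replicate block, and leaving out each library. Some genes taken by the rule are left out of the text.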

Additional observations from a re-analysis of the deposited data

How the results depend on the processing

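The count of genes passing for running against sedentary in the IP at day 18, which was 0, was 1 with a pseudocount of 0.1, 9 with the 4 libraries fitted alone, and 2 in a fit without both day 11 IP libraries of letter a, an alternative chosen after the data were seen. It ranged from 0 (without sedentary d) to 9 (without sedentary c) when 1 library was left out. With the library letter as a replicate block it was 18, of which 9 were higher and 9 lower, Inf2, Cdca3, Glra2, Nradd and Tubb2a among the higher. The letters are not known to pair samples, and the differences c minus d of the running and sedentary libraries correlated at only 0.05 across genes. It stayed 0 with a pseudocount of 5, median-of-ratios scaling, limma without trend and robust, no filter, a filter at 5 TPM, or TPM recomputed without Rpph1. For day 18 against the other days the count of 0 became 2 with a pseudocount of 0.1 and 4 with the replicate block, and ranged from 0 to 5 with 1 library left out. The 2 genes of the input became 0 with the replicate block. For IP minus input it was 0 in both alternatives run. The number of genes without overlap ranged from 6222 to 8989 over filters and scaling, against 7833, and 14 to 21 lists had a median above 0, against 18. The cause of these changes was not tested.

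The direction of the 24 named genes is fixed by their choice. Over 11 alternatives they newly passed in 9 of 264 values. Of the 37 list medians, those that turned sign under at least 1 of 9 alternatives were apoptosis, ribosomal proteins, endothelium, GABA receptors, glycolysis, interferon, growth factors, Notch and Wnt signalling and olfactory receptors. The all-gene median moved by at most 0.04. With 2 libraries a group and no known depth, small differences of low genes were not detectable.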
